A study of Rattus norvegicus with 6 samples.

Results

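Carboxylesterases are serine hydrolases of the endoplasmic reticulum that split carboxylic esters and amides of drugs, toxicants and lipids. Class 1 enzymes (Ces1) prefer esters with a large acyl group, class 2 enzymes (Ces2) prefer esters with a large alcohol group, and arylacetamide deacetylase (Aadac) is a microsomal hydrolase that acts on amides as well. Many organophosphates bind the active-site serine of such enzymes, and in rodents the proximal tubule is a site of their expression in the kidney. The genes described here are Ces1c, Ces1d, Ces1e, Ces1f, Ces2a, Ces2c, Ces2e, Ces2g and Aadac, chosen by family. Earlier results of these data were known when they and the lists below were chosen. An array probe was taken as a member where its accession belongs to one of these 9 genes, which gave 15 of 61657 non-control probes and 8 of 15284 named genes. No probe mapped to Ces2a, which is not analysed here.

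Total RNA from renal cortex was measured on single-colour Agilent arrays, 1 rat per array. The rats were male Sprague-Dawley (Crl:CD(SD)), an outbred stock, and 5 weeks old at purchase. 3 rats received tris(2-chloroethyl)phosphate (TCEP), a chlorinated organophosphate flame retardant, at 400 mg/kg/day for 4 weeks, and 3 received corn oil, the vehicle, for 4 weeks. The question is which cortical transcripts differ after TCEP. The series' design text calls the rats of a group biological replicates.

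A level is the log2 processed signal of a probe minus the log2 75th percentile of its array, and a difference is TCEP minus vehicle on that log2 scale. Values after ± are SDs (n = 3 arrays). Levels of different probes cannot be set against each other, because each probe binds with its own strength. Tests are limma's, with p-values adjusted over every probe tested on the array, and a probe is called at an adjusted p under 0.05. In whole cortex, fewer cells of a type and less RNA per cell cannot be told apart. The TCEP arrays lay on 1 slide with 1 scan time and the vehicle arrays on another, so slide and treatment cannot be told apart in any difference below.

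Per array, 67.2% to 69.3% of non-control probes exceeded background by the scanner software's call, written here as well above background. All 12 proximal tubule markers were well above background on all 6 arrays, with a summed signal of 2547 to 3133 times the 75th percentile on the TCEP arrays and 2839 to 3071 times on the vehicle arrays. TCEP replicate 1 stood apart in part of the transcripts of hepatocytes, the main liver cells. Of 12 hepatocyte markers, 11 were well above background on some array, and 8 of these 11 were highest on TCEP replicate 1. Apoc3 and Cyp2c11 were highest on TCEP replicate 3 and Ahsg on vehicle replicate 1. Ahsg was lowest on TCEP replicate 1, at -1.63. Cyp2c11 was higher on every TCEP array than on any vehicle array, with a difference of 1.05 (SE 0.25, limma adjusted p = 0.551). Albumin (Alb) had a level of 0.85 on TCEP replicate 1 and of -6.56 and -6.99 on TCEP replicates 2 and 3, against -7.80, -6.34 and -6.38 on the vehicle arrays. Transthyretin (Ttr) had 0.30 on TCEP replicate 1 and -7.14 and -6.73 on the other TCEP arrays, against -8.14, -6.99 and -8.00 on the vehicle arrays. Alb, Ttr, Apoa2 and Fgg were well above background on TCEP replicate 1 alone, and Tat on no array. The summed signal of the list was 9.79 to 13.4 times the 75th percentile in TCEP and 8.75 to 10.68 times in vehicle, and 6 of the 12 markers were well above background on all 6 arrays. Apoc3 alone made up 41.9% to 72.1% of that sum. Without Apoc3 the sum was 7.82 times on TCEP replicate 1 and 3.62 and 4.61 times on the other TCEP arrays, against 2.91 to 3.55 times on the vehicle arrays. Values without TCEP replicate 1 stand beside some of the differences below. A difference given without such a value can still depend on that array.

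Of the 15 member probes, 13 passed the filter, which asks that every array of either group have the probe well above background. They stood for all 8 genes with a probe. 11 probes were well above background on all 6 arrays. 9 of the 13 had a higher mean in TCEP and 4 a lower mean, with a median difference of 0.04, beside a median of -0.0052 over all 41040 probes tested. limma called 0 of the 13, and it called 0% of all probes tested. At an unadjusted p under 0.05 there was 1 of 13, against 8.32% of all probes. For 1 of 13 probes, of Ces1c, every TCEP array lay above every vehicle array, a pattern that 7.15% of all probes showed, while 0 of 13 showed the reverse, against 8.11% of all probes. These shares lie near the background. By brightest probe, 6 of 8 genes had a higher mean in TCEP, against 52.5% of all genes tested. The median over these 8 genes was 0.04, and 0.18 without TCEP replicate 1.

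**Figure D1:**
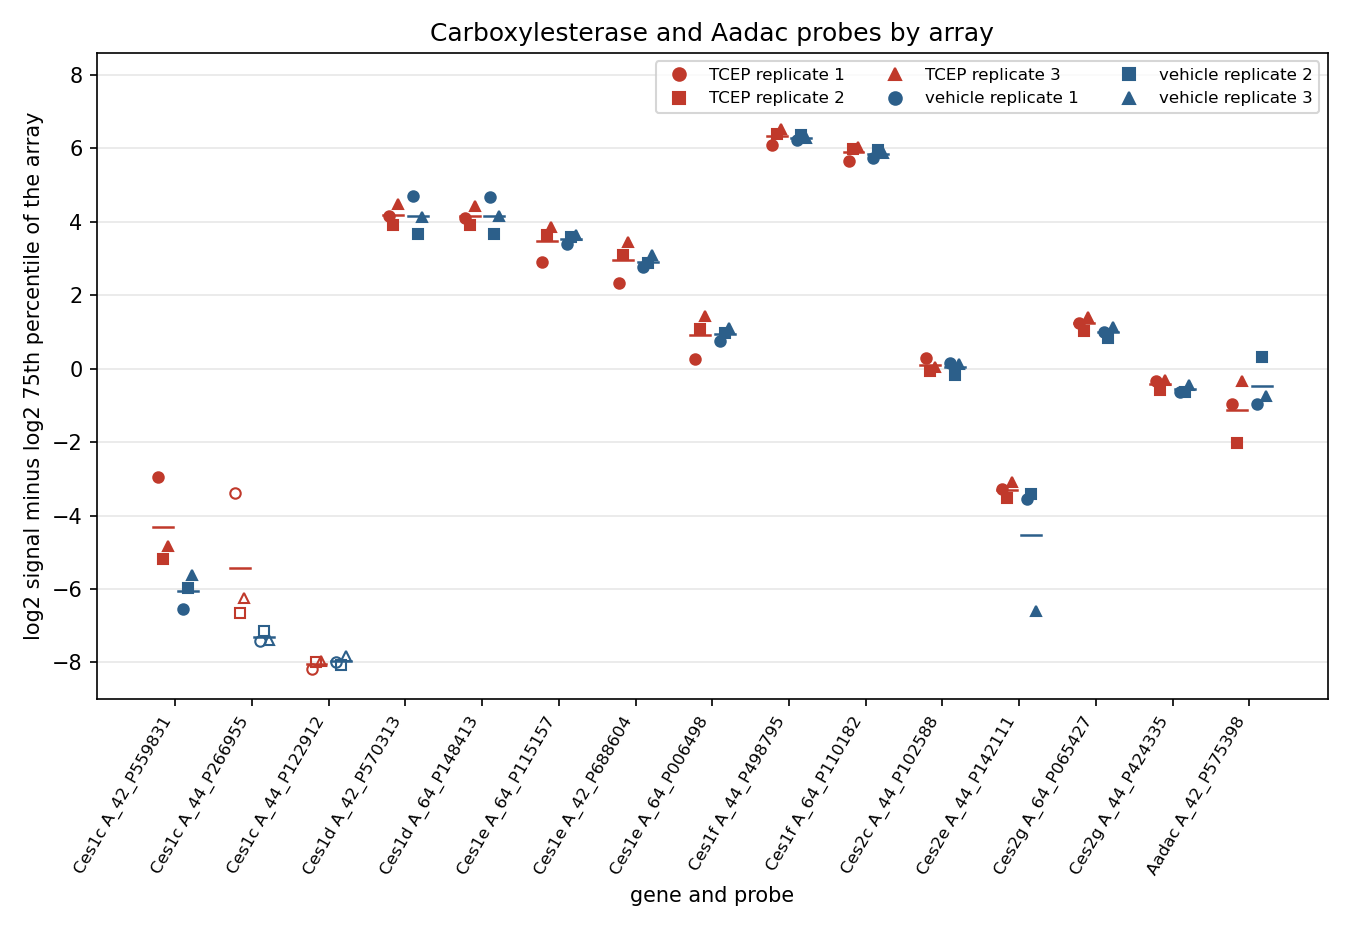
Levels of the 15 carboxylesterase and Aadac probes (log2 signal minus the log2 75th percentile of the array) on the 3 TCEP arrays (red) and the 3 vehicle arrays (blue), with symbols for replicates and lines for group means. Open symbols mark the 2 Ces1c probes that were not tested, and heights compare arrays within a probe, not probes with each other. The groups separate at the Ces1c probes A_42_P559831 and A_44_P266955, where TCEP replicate 1 is highest, and overlap at every other probe.

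Ces1c encodes a class 1 enzyme that is known in mice as the secreted carboxylesterase of blood plasma, made largely in liver. On its brightest probe (A_42_P559831) the level was -2.95, -5.17 and -4.83 on TCEP replicates 1, 2 and 3, against -6.55, -5.97 and -5.62 on the vehicle arrays. All TCEP arrays lay above all vehicle arrays, and TCEP replicate 1 lay far above both other TCEP arrays. The means were -4.32 ± 1.19 in TCEP and -6.05 ± 0.47 in vehicle, a difference of 1.73 (SE 0.61, 95% confidence interval 0.25 to 3.21) that did not pass the threshold (limma adjusted p = 0.573, unadjusted p = 0.0285). All 3 TCEP arrays and 0 vehicle arrays had the probe well above background. It thus passed the filter through the TCEP arrays alone, as did 0.0585% of the probes tested, while 0.119% passed through the vehicle arrays alone. With each vehicle array set to its lowest signal well above background, or to the probe's own higher signal, the TCEP mean was 2.85-fold higher. That lowest signal is taken over all probes and is no detection limit of this probe. On vehicle replicates 2 and 3 the probe read 15.4 and 20.1, above lowest signals of 15.0 and 18.4, without being well above background. The 2.85-fold concerns the means of these arrays and is neither a lower bound nor a confidence limit. The interval of the difference given above is 1.19-fold to 9.25-fold.

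Without TCEP replicate 1, on which most detected hepatocyte markers were highest, the fold over vehicle signals set in this way was 1.78. The difference was then 1.05 (SE 0.30, limma adjusted p = 0.668). The remaining TCEP arrays read 27.0 and 34.1, against undetected readings of 10.3, 15.4 and 20.1 on the vehicle arrays. Leaving out 1 TCEP array cannot undo the separation of the groups. The probe was also tested only because it was detected in TCEP, so this order is no separate evidence of a difference. With normexp, run on median spot and background signals, so that the signal measure and the background correction changed together, the difference was 0.44. A further Ces1c probe (A_44_P266955) was well above background on TCEP replicate 1 alone, with levels of -3.38, -6.65 and -6.25 on the TCEP arrays, against -7.42, -7.15 and -7.38 on the vehicle arrays. The remaining Ces1c probe (A_44_P122912) was well above background on no array. The part of the hepatocyte transcripts in the Ces1c level of TCEP replicate 1 was not tested.

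**Figure D2:**
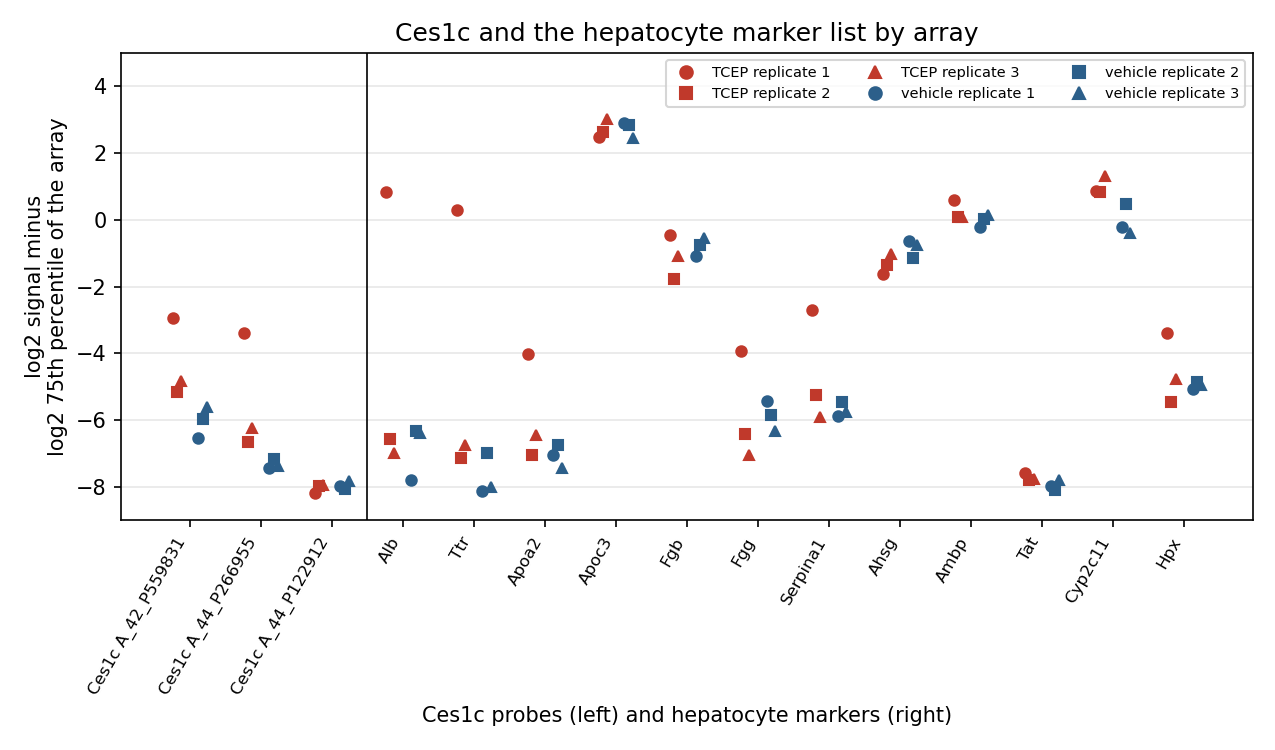
Levels of the 3 Ces1c probes (left of the line) and the 12 hepatocyte markers (right), as log2 signal minus the log2 75th percentile of the array, on TCEP (red) and vehicle (blue) arrays. TCEP replicate 1 (red circles) lies above the other arrays at 2 Ces1c probes and at 8 of the 11 markers detected on some array, with Alb at 0.85 and Ttr at 0.30.

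Among 11804 genes, each by its brightest probe, the genes closest to Ces1c over the 6 arrays were Fabp1, Mdfi and Hp. Closeness is the root mean square difference of the array values after each gene's own mean is removed. It was 0.41 for Fabp1, the liver-type fatty acid-binding protein, 0.41 for Mdfi, an inhibitor of myogenic transcription factors, and 0.51 for haptoglobin (Hp), a plasma protein. Each had its highest value on TCEP replicate 1, at 2.37, 1.59 and 2.08 above the gene's mean. Ces1c was itself highest there, so the choice by closeness favoured genes that peak on that array. On TCEP replicate 2 Fabp1 stood at -0.83 from its mean, below vehicle replicates 2 and 3 (-0.37 and -0.36), unlike Ces1c.

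Ces1f, Ces1e, Ces1d, Ces1c and Ces1a are direct neighbours in this order on chromosome 19 in the RefSeq gene table of GRCr8. The upstream regions of Ces1c and Ces1d are shown because the genes are next to each other and differ in how their arrays fall. The 250 bases before the annotated start were 58.6% identical between Ces1c and Ces1d in a global alignment, against a median of 46.4% over 66 pairs of family promoters. That of the class 2 gene Ces2g is shown because it holds a match to the antioxidant response element. Capitals mark matches, on either strand, to that element (TGACNNNGC) or to the xenobiotic response core (GCGTG). Sequences are from RefSeq (GRCr8, plus strand), at chr19:30099197-30099446 for Ces1c, chr19:30046244-30046493 for Ces1d and chr19:49856420-49856669 for Ces2g.
Ces1c: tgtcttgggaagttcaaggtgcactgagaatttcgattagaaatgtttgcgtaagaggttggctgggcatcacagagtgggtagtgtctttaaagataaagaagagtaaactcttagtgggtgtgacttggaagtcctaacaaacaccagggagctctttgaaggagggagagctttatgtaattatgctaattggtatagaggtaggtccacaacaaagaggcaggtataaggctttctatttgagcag
Ces1d: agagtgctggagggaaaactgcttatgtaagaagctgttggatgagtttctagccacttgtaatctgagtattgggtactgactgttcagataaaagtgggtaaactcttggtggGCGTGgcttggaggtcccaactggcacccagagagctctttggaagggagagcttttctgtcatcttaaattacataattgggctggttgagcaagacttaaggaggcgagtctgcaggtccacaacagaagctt
Ces2g: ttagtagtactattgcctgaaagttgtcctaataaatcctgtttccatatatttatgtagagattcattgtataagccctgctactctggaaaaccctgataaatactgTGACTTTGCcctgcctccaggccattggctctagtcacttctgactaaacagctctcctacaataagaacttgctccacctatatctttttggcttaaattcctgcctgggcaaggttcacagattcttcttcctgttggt
In windows of 300 bases (250 before to 50 after the start) 1 of the 8 members, Ces2g, held the antioxidant response element and 1 of 8, Ces1d, the xenobiotic response core, beside 12.1% and 29.7% of 33469 promoters. Ces1c held neither.

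Ces1d encodes the class 1 enzyme known as triacylglycerol hydrolase, which mobilises stored fat for lipoprotein assembly in liver. Its level (A_42_P570313) was 4.15, 3.90 and 4.47 on the TCEP arrays, against 4.70, 3.66 and 4.14 on the vehicle arrays. Vehicle replicate 1 was the highest array and vehicle replicate 2 the lowest, so the TCEP arrays lay inside the vehicle range. The difference was 0.0086 (SE 0.28, 95% confidence interval -0.69 to 0.70, limma adjusted p = 0.995). The other Ces1d probe (A_64_P148413) gave -0.0082, and the 2 probes departed from each other by at most 0.027 on any array once their means were removed. As a fold, the interval on the first probe runs from 0.622 to 1.63.

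Ces1dl1, annotated as a Ces1d-like gene, followed Ces1d more closely than any other gene did. Its root mean square difference to Ces1d (A_42_P570313) over the 6 arrays was 0.0898, and 0 of the other genes among the 11804 were closer. Its promoter was 82.7% identical to that of Ces1d, the highest of the 66 pairs. Ces1dl1 had -0.95, -1.27 and -0.76 on the TCEP arrays, against -0.56, -1.33 and -0.97 on the vehicle arrays, a difference of -0.04 (SE 0.22, limma adjusted p = 0.975). Whether its probe also takes up Ces1d transcripts was not tested, since probe sequences were not used here. Ces1dl1 and Cesl1 were added to the description after their values were seen.

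Ces1e encodes a class 1 enzyme known in mice as egasyn, which holds beta-glucuronidase in the endoplasmic reticulum. On its brightest probe (A_64_P115157) the level was 2.91, 3.63 and 3.87 on the TCEP arrays, against 3.41, 3.59 and 3.64 on the vehicle arrays. TCEP replicate 1 was the lowest array and TCEP replicate 3 the highest, on this and on both further probes. The SD was 0.50 in TCEP and 0.12 in vehicle. The difference was -0.08 (SE 0.25, 95% confidence interval -0.68 to 0.53, limma adjusted p = 0.957), and 0.04 and -0.01 on the further probes (A_42_P688604 and A_64_P006498). Without TCEP replicate 1 the difference on the brightest probe was 0.20, and 0.36 and 0.32 on the further probes. Ces1e thus lay low on the array on which Ces1c lay high.

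Ces1f encodes a class 1 lipid hydrolase studied mainly in mouse liver. Its level (A_44_P498795) was 6.08, 6.38 and 6.52 on the TCEP arrays, against 6.22, 6.37 and 6.30 on the vehicle arrays. The vehicle arrays all lay inside the TCEP range. The difference was 0.03 (SE 0.12, 95% confidence interval -0.27 to 0.33, limma adjusted p = 0.964), or 0.828-fold to 1.26-fold. The other Ces1f probe (A_64_P110182) gave 0.04, and without TCEP replicate 1 the probes gave 0.15 and 0.16. Ces1f was among the steadier members: 42.1% of all probes tested had a larger SD within groups, against 7.72% for Ces1d (A_42_P570313) and 10.6% for Ces1e (A_64_P115157).

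Both Ces1f probes moved with both probes of Cesl1. Cesl1 (A_64_P005108) had 7.07, 7.50 and 7.48 on the TCEP arrays, against 7.24, 7.33 and 7.29 on the vehicle arrays, a difference of 0.06 (SE 0.13, limma adjusted p = 0.924), and 0.21 without TCEP replicate 1. Its root mean square difference to Ces1f was 0.053, against 0.036 between the 2 Ces1f probes. Of all genes tested, 27 (0.229%) lay closer to Ces1f than Cesl1 did. The closest were Htt (0.031), which encodes huntingtin, Rabl3 (0.032), a small GTPase, and Lrp2 (0.036), the endocytic receptor megalin of the proximal tubule.

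**Figure D3:**
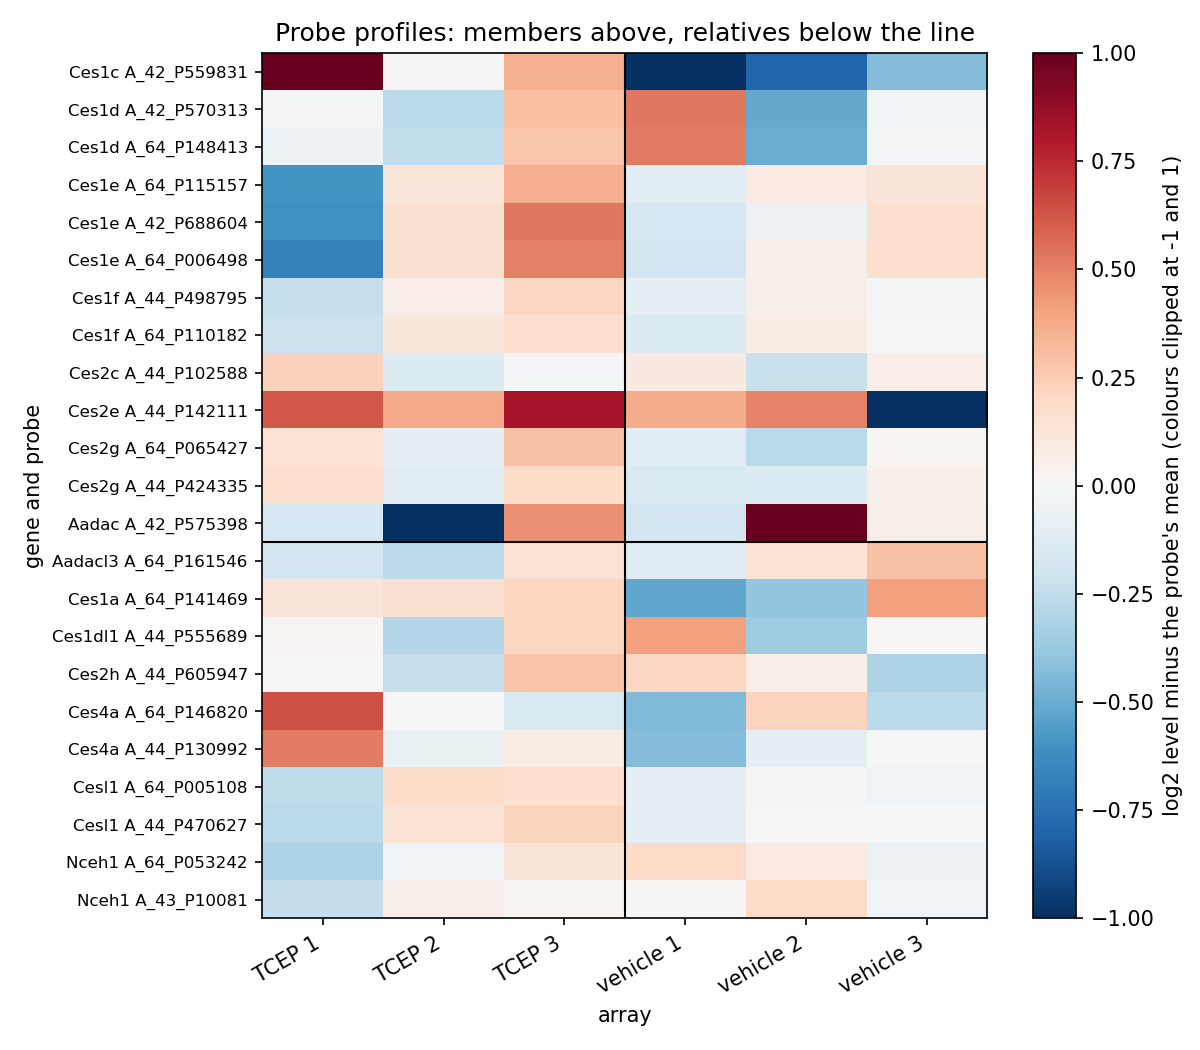
Level of each tested probe minus its own mean over the 6 arrays (log2, colours clipped at -1 and 1), with TCEP arrays left of the vertical line, vehicle arrays right of it, the 13 member probes above the horizontal line and relatives below. Probes of 1 gene have like rows (Ces1d, Ces1e, Ces1f), Ces1dl1 resembles Ces1d, and no column block of TCEP arrays stands out across the family.

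Over the family, the 9 pairs of probes of the same gene had root mean square differences between 0.0202 and 0.203. The 105 pairs of brightest probes of different genes had differences between 0.053 and 1.46, with a median of 0.43. Probes of the same gene thus lay closer together over the 6 rats than most pairs of different genes.

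Of the class 2 genes, Ces2c encodes an enzyme described in rat as an acylcarnitine hydrolase. Its level was 0.29, -0.08 and 0.05 on the TCEP arrays, against 0.15, -0.16 and 0.13 on the vehicle arrays. The groups overlapped almost fully, with a difference of 0.05 (SE 0.13, 95% confidence interval -0.28 to 0.38, limma adjusted p = 0.949), and of -0.05 without TCEP replicate 1.

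Ces2e, a further class 2 enzyme, had -3.29, -3.53 and -3.09 on the TCEP arrays, against -3.54, -3.41 and -6.60 on the vehicle arrays. Vehicle replicate 3 alone was low, and there the probe was not well above background. The means were -3.30 ± 0.22 in TCEP and -4.52 ± 1.81 in vehicle, a difference of 1.22 (SE 0.86, limma adjusted p = 0.737). That difference rests on vehicle replicate 3: without it the value was 0.17 (SE 0.15, limma adjusted p = 0.815), and with normexp it was 0.52.

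Ces2g, a class 2 enzyme whose promoter match is shown above, had higher means in TCEP on both of its probes. On the brightest (A_64_P065427) the level was 1.25, 1.03 and 1.41 on the TCEP arrays, against 1.01, 0.84 and 1.14 on the vehicle arrays. TCEP replicate 2 lay inside the vehicle range. The difference was 0.23 (SE 0.13, 95% confidence interval -0.07 to 0.54, limma adjusted p = 0.675), and 0.16 (SE 0.11) on the other probe (A_44_P424335). It was positive in every one of the 18 alternatives tried, between 0.15 and 0.33, and passed the threshold in none.

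Aadac had -0.97, -2.04 and -0.33 on the TCEP arrays, against -0.97, 0.31 and -0.73 on the vehicle arrays. The lowest array was TCEP replicate 2 and the highest vehicle replicate 2, with the other 4 arrays between them. The means were -1.11 ± 0.86 in TCEP and -0.46 ± 0.68 in vehicle, a difference of -0.65 (SE 0.52, 95% confidence interval -1.92 to 0.62, limma adjusted p = 0.768). Just 1.64% of all probes tested varied more within groups. Without TCEP replicate 2 the difference was -0.19 and without vehicle replicate 2 it was -0.26.

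**Figure D4:**
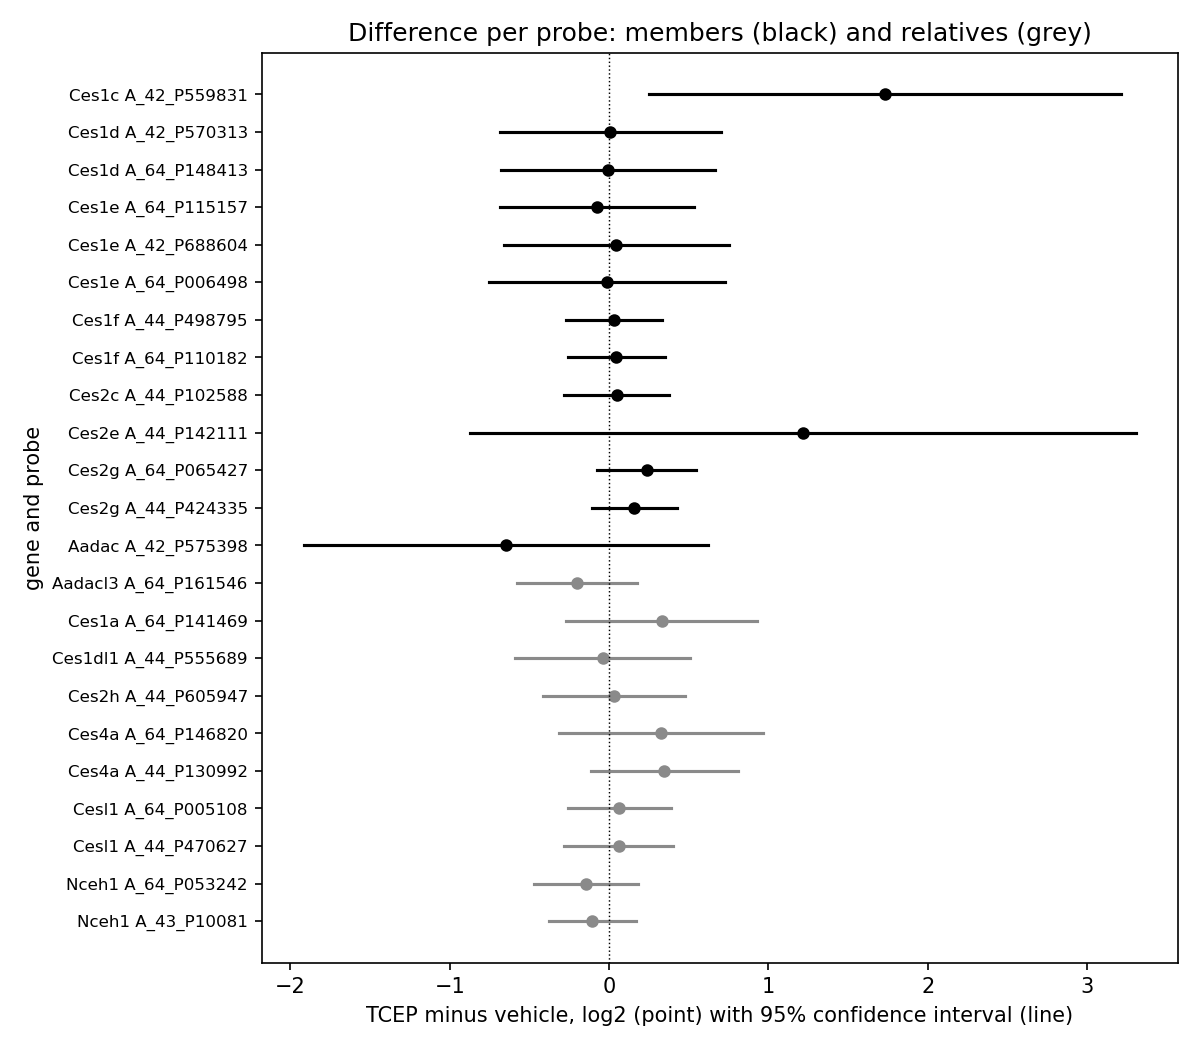
TCEP minus vehicle difference of each tested probe (log2, points) with its 95% confidence interval from limma (lines), for members (black) and relatives (grey). Of the member intervals, that of Ces1c (0.25 to 3.21) lies above 0 and the others cross 0, and none passes the adjusted threshold. The Ces1c probe was well above background on 0 vehicle arrays and passed the filter through the TCEP arrays alone. Its interval thus sets TCEP signals against undetected vehicle readings, and with normexp its difference was 0.44.

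Among 14 further genes of the carboxylesterase and Aadac families, 8 had a probe and 5 were tested. limma called 0 of the 5, and 0 had an unadjusted p under 0.05. 3 had a higher mean in TCEP and 2 a lower one, with a median difference of 0.03 (-0.10 with normexp), beside 0.0084 over all genes tested. Ces1a, next to Ces1c, had -5.40, -5.38 and -5.32 on the TCEP arrays, against -6.06, -5.92 and -5.12 on the vehicle arrays. It was well above background on 3 TCEP arrays and on 1 vehicle array, replicate 3, which was also its highest. Its difference was 0.33 (SE 0.24, limma adjusted p = 0.751), with 0.62 without vehicle replicate 3 (limma adjusted p = 0.655), 0.15 without vehicle replicate 1 and 0.09 with normexp. The other Ces1a probe (A_64_P068930) was well above background on no array. Ces4a, another family member, differed by 0.33 (SE 0.26) and 0.35 (SE 0.19) on its 2 probes, and by 0.09 and 0.17 without TCEP replicate 1. The arylacetamide deacetylase-like gene Aadacl3 differed by -0.20 (SE 0.15), with -0.32 to -0.10 over the fits that left out 1 array. The neutral cholesterol ester hydrolase gene Nceh1 differed by -0.14 (SE 0.13), and by -0.02 without TCEP replicate 1. Ces2h differed by 0.03 (SE 0.18). Ces2b, Ces5a and Aadacl2 had probes that did not pass the filter.

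Other hydrolases of carboxylic esters, a list of 38 lipases and related enzymes with 30 tested, gave 19 higher and 11 lower means and a median difference of 0.05. limma called 0, and 4 had an unadjusted p under 0.05, against 7.7% of all genes. Lipoprotein lipase (Lpl) had -0.28, -0.58 and -0.37 on the TCEP arrays, against -0.02, -0.13 and -0.11 on the vehicle arrays, a difference of -0.33 (SE 0.10, limma adjusted p = 0.557). Mgll, which encodes monoacylglycerol lipase, differed by -0.25 (SE 0.09), the diacylglycerol lipase gene Daglb by 0.21 (SE 0.08) and Pafah1b3, a subunit of a platelet-activating factor acetylhydrolase, by 0.19 (SE 0.08). These are the 4 genes of the list with the smallest unadjusted p. Over the whole list the groups did not overlap for 5 genes that were higher and 3 that were lower in TCEP, of 30, against 15.6% of all genes tested.

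A list drawn up around organophosphate esterases, with paraoxonases, acetylcholinesterase and related enzymes, had 6 of 8 genes tested. Whether each of them acts on organophosphates was not examined. 5 of the 6 had a higher mean, against 52.5% of all genes tested, with 0 called and a median of 0.19 (0.10 without TCEP replicate 1). Pon3, a paraoxonase, had -0.16, -0.41 and -0.26 on the TCEP arrays, against -0.73, -0.71 and -0.48 on the vehicle arrays, without overlap, a difference of 0.36 (SE 0.11, limma adjusted p = 0.552) that was 0.19 with normexp. Rgn, which encodes the lactonase regucalcin, differed by 0.40 (SE 0.28; 0.14 without TCEP replicate 1), the acetylcholinesterase gene Ache by 0.23 (SE 0.15; 0.10 without TCEP replicate 1) and Pon2 by 0.09 (SE 0.06). The groups did not overlap for 2 of the 6 genes, Pon3 and Pon2, against 15.6% of all genes tested in either direction.

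Retention and folding genes of the endoplasmic reticulum, where most carboxylesterases reside, had a median of 0.01 over 11 genes (-0.06 with normexp), with 8 higher and 3 lower. The cargo receptor gene Lman1 differed by -0.20 (SE 0.07, limma adjusted p = 0.574) and P4hb, which encodes a protein disulfide isomerase, by 0.10 (SE 0.07). Pdia4 differed by 0.12 (SE 0.14) and Pdia3 by -0.07 (SE 0.07), both also disulfide isomerases, and limma called 0 of the 11.

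Nuclear receptors and other regulators linked to carboxylesterase expression had higher means in 10 of 12 genes, against 52.5% of all genes tested. Their median was 0.15 (0.05 with normexp), with 0 called. Nr1i3, which encodes the constitutive androstane receptor CAR, had -4.43, -5.01 and -4.97 on the TCEP arrays, against -5.45, -5.09 and -5.39 on the vehicle arrays. The groups did not overlap, and the difference was 0.51 (SE 0.19, limma adjusted p = 0.579), with 0.32 without TCEP replicate 1 and 0.05 with normexp. Nr1i2, which encodes the pregnane X receptor PXR, differed by 0.19 (SE 0.09), Keap1, which encodes the NRF2 inhibitor, by 0.16 (SE 0.07) and the glucocorticoid receptor gene Nr3c1 by 0.14 (SE 0.06). Over all settings tried, their lowest values were 0.04 for Nr1i2, 0.13 for Keap1 and 0.05 for Nr3c1. The groups did not overlap for 4 of these 12 regulators, all higher in TCEP, against 15.6% of all genes tested in either direction. Of 26 readout genes of CAR, PXR, AhR and NRF2, 18 were tested and 15 were higher, against 52.5% of all genes tested. The tested readout genes had a median of 0.20, with 0 called. That median was 0.39 without TCEP replicate 3, and 0.14 without vehicle replicate 3. Gstm1, a glutathione transferase, had 2.61, 3.26 and 3.89 on the TCEP arrays, against 1.67, 2.08 and 1.41 on the vehicle arrays, a difference of 1.53 (SE 0.35, limma adjusted p = 0.551). The sulfiredoxin gene Srxn1 differed by 0.67 (SE 0.26), the aldo-keto reductase gene Akr7a3 by 0.65 (SE 0.18) and the glucuronosyltransferase gene Ugt1a6 by 0.49 (SE 0.13). Without TCEP replicate 2 Srxn1 differed by 0.40. Over this list the groups did not overlap for 4 of 18 genes, all higher in TCEP. Of all genes tested, 15.6% did not overlap, in either direction.

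Markers of other cells that could hold carboxylesterases were measured beside the members. The summed signal of 9 macrophage markers was 88.3 to 94.8 times the 75th percentile in TCEP and 97.4 to 132.8 times in vehicle. Without Lyz2, which made up 79.9% to 85.7% of it, the sum was 13.8 to 15.7 times in TCEP and 13.9 to 20.4 times in vehicle. 8 of 8 tested macrophage markers had a lower mean in TCEP, against 5612 of 11804 genes tested. For 0 of the 8 was the unadjusted limma p under 0.05, and for 0 did the groups not overlap. Of the 8, 5 were highest on vehicle replicate 2 and 3 on vehicle replicate 3. The summed signal of 8 adipocyte markers was 168.0 to 214.5 times in TCEP and 188.2 to 221.7 times in vehicle, with leptin (Lep) well above background on no array. Pck1, also in the proximal tubule list, made up 97.7% to 99.3% of it, and without Pck1 the sum was 2.01 to 3.92 times in TCEP and 1.46 to 3.57 times in vehicle. Fabp4, the fatty acid-binding protein of adipocytes, named after its values were seen, had -1.58, -2.70 and -3.67 on the TCEP arrays, against -4.14, -3.82 and -4.20 on the vehicle arrays, a difference of 1.41 (SE 0.50, limma adjusted p = 0.574). Fabp4 was highest on TCEP replicate 1. Of the 6 adipocyte markers tested, 4 had a higher and 2 a lower mean in TCEP. The marker Cfd differed by -0.82 (SE 0.37, limma adjusted p = 0.627). Markers of the straight proximal tubule summed to 885 to 1275 times in TCEP and 868 to 1274 times in vehicle. 6 blood markers summed to 186.3 to 209.3 times in TCEP and 178.2 to 279.0 times in vehicle, and all 5 that were detected were highest on vehicle replicate 2. Haemoglobin beta (Hbb) made up 94.6% to 96.3% of that sum. Adrenal cortex markers summed to 0.68 to 1.92 times in TCEP and 0.48 to 1.47 times in vehicle, with Cyp11b1 and Star well above background on no array and Hsd3b1 at 86.5% to 96.8% of the sum. Their part in the member values was not tested.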

How the data were processed

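Agilent Feature Extraction 10.7.1.1 wrote the deposited scanner files, per the file headers. Its processed signal, as deposited, is a linear intensity after background subtraction and spatial detrending, per the file headers, with no scaling between arrays. The deposited series matrix holds the ratio of that signal to a constant per array, between 1.00024 and 1.00146 times that array's 75th percentile, as checked against the scanner files. Its column medians were 0.104, 0.1035 and 0.104 for TCEP replicates 1 to 3 and 0.1054, 0.1066 and 0.1055 for vehicle replicates 1 to 3. Other deposited columns used are median spot and background intensities and flags of 0 or 1.

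Of 62976 spots, 1319 controls and 12 probes with outlier flags were left out. At most 1 probe per array was saturated. Probes were named by unversioned accession through the RefSeq gene table of GRCr8 (27460 probes, 44.5%). Each of 41040 probes that passed the filter was tested by itself, two-sided, by limma 3.58.1 (lmFit, eBayes; R 4.3.3) with treatment as the model term and 6.05 degrees of freedom and Benjamini-Hochberg adjustment. The number of arrays limits the precision. The code was tested on simulated data. In lists, a gene is its brightest probe. The text names all members, the genes of the further family list that had a probe and, of each other list that is no marker list, the 4 genes with the smallest unadjusted p. Normexp (offset 50) was run on median spot and background intensities. The members and lists were chosen with earlier results of these data known. A planned protein comparison was not made, since protein sequences were not used here. Figures used Python 3.11.15 and matplotlib 3.10.9.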

Additional observations from a re-analysis of the deposited data

How the results depend on the processing

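Under 18 alternatives, 189 of 222 member values kept their direction and their side of the threshold and 33 reversed. The reversals were all on probes whose difference in the main fit was near 0, between -0.08 and 0.05. Reversed values themselves reached 0.32, for Ces1e (A_64_P006498) without TCEP replicate 1. limma called 0 member probes in each alternative, with a smallest adjusted p of 0.412. Over the whole array it called 0 probes, except for 3 without vehicle replicate 2, where 3344 had an unadjusted p under 0.05 (range without 1 array 0 to 3). The members' median was between 0.0027 and 0.18 when 1 array was left out. Ces1d (A_42_P570313) was -0.02 with quantile normalization, -0.14 with normexp and -0.19 with array weights, and -0.24 to 0.27 without 1 array. Ces1d (A_64_P148413) was 0.03 with no scaling, 0.06 with spike-in centring and 0.04 with normexp, and -0.26 to 0.25 without 1 array. Ces1e (A_64_P115157) was 0.05 with array weights and -0.28 to 0.20 without 1 array. Ces1e (A_64_P006498) was 0.03 with no scaling, 0.06 with spike-in centring, 0.04 with normexp and 0.14 with array weights, and -0.27 to 0.32 without 1 array. Without 1 array, Ces1e (A_42_P688604) was -0.21 to 0.36 and Ces1f (A_44_P498795) -0.06 to 0.15. Ces1f (A_64_P110182) was -0.0019 with normexp and -0.03 to 0.16 without 1 array, and Ces2c -0.04 with array weights and -0.05 to 0.13 without 1 array. Ces1dl1 was 0.00089 with no scaling, 0.03 with spike-in centring and -0.23 to 0.16 without 1 array. Ces2h was -0.10 with normexp and with array weights, and -0.12 to 0.15 without 1 array. Cesl1 was -0.04 with normexp (A_64_P005108), and without 1 array -0.01 to 0.21 (A_64_P005108) and -0.04 to 0.21 (A_44_P470627). Pdia3 was 0.001 with spike-in centring. The cause was not tested. With the replicate number as a block, limma called 0 probes, and 3011 had an unadjusted p under 0.05. Same-numbered arrays deviated together with correlations of -0.05, -0.06 and 0.15. With 3 arrays per group these cannot decide whether the numbers pair the rats, and the sample titles do not say. Slide and scan could not be fitted beside treatment. Signals near background limit Ces1c, Ces2e and Ces1a.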
